A study of Mus musculus with 6 samples.

Results

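Autophagy is the process by which a cell wraps part of its own cytoplasm in a double membrane, the autophagosome, and breaks the content down in lysosomes. The members described here were 40 named genes of its core machinery, chosen by gene symbol from the deposited count table. They made up 40 of the 55421 genes of the table, and all 40 had enough reads to be tested. The RNA came from bone marrow leukemia cells of C57BL/6 mice, with 3 sequencing libraries of AE9a-Ddit4+/+ cells, called wild type below, and 3 of AE9a-Ddit4-/- cells, called knockout. Both groups carried AML1-ETO9a (AE9a), a shortened AML1-ETO fusion protein that had been brought with a GFP-marked retrovirus into c-Kit+ blood stem and progenitor cells, which were then transplanted into irradiated recipients. The donors of the AE9a-Ddit4+/+ cells had an intact Ddit4 gene and those of the AE9a-Ddit4-/- cells were Ddit4 knockout mice. Donors of both kinds fell in the same range of young adult age per the methods, and the labels give no age. It is not stated whether the libraries of a group came from separate leukemias, so that n counts libraries and the p values measure the spread between these libraries, which may be technical. In the primary transplants that the paper followed, fewer than 3 recipients of knockout cells developed leukemia. The 3 knockout libraries may therefore share a primary leukemia. The part of Ddit4 that the allele lacks was not known here. A Western blot in the paper showed no DDIT4 protein in AE9a-Ddit4-/- leukemia cells. The labels also name a culture medium for the leukemia cells, without saying how long the sequenced cells had been kept in it.

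The machinery acts in steps. The ULK1 kinase complex starts the process, a class III PI3-kinase complex marks the membrane with a lipid, ATG9 and lipid transfer proteins supply membrane, and a pair of conjugation systems attach ATG8 proteins (LC3 and GABARAP) to it. Receptors such as p62 then tie cargo to the ATG8 proteins. DDIT4 is a stress-induced inhibitor of mTORC1, and mTORC1 in turn keeps ULK1 inactive by phosphorylation. The study links DDIT4 with autophagy through mTOR, and the comparison asks whether the RNA of the machinery differed between the genotypes. Much of this regulation acts on proteins, which RNA libraries do not measure.

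The libraries held 62141558 to 72717681 counts, of which the 40 genes took 0.335% to 0.404%. Ddit4 itself (ENSMUSG00000020108, GRCm38 chr10:59949669-59951834, minus strand) was read at 228, 161 and 342 CPM (counts per 1000000 counts of the scaled library) in wild-type and at 84.9, 77.7 and 85.9 CPM in knockout libraries 1 to 3, so that the groups did not overlap (log2 fold change -1.56, edgeR adjusted p 0.00635). The libraries also differed in ways beside the Ddit4 allele. The Y-linked gene Ddx3y lay between 0.0589 and 0.0774 CPM in the wild-type and between 88.2 and 125 CPM in the knockout libraries, and Xist between 566 and 1032 against 20.3 to 129 CPM. The methods name female recipients, and genotype and sex of the cells cannot be told apart here. Of the markers of the progenitor state, Kit went from 24.7 ± 8.92 CPM in wild type to 411 ± 103 CPM in knockout, and Cd34 from 5.92 ± 3.79 to 519 ± 34.4 CPM (SD, n = 3 each). Runx1t1, the mouse gene of the ETO part of the fusion, was at 11.9 ± 5.83 CPM in wild-type and at 139 ± 67.9 CPM in knockout libraries (log2 fold change 3.55, edgeR adjusted p 0.00295), and whether reads of the AE9a transgene were counted under this gene is not stated. Ptprc, the gene of the general leukocyte marker CD45, was at 108 ± 56.5 and 578 ± 111 CPM (2.43, edgeR adjusted p 0.00416). Both genes, like Kit and Cd34, were thus lower in wild-type than in knockout libraries. Of the erythroid markers, 10 of 10 were lower in knockout cells, with summed levels of 5731 to 12705 against 117 to 609 CPM. Of the neutrophil markers, 4 of 10 were lower (6861 to 11220 against 1832 to 4920 CPM). Of the megakaryocyte and platelet markers, 6 of 9 were higher and 1 lower (137 to 224 against 2187 to 2878 CPM). Monocyte and macrophage markers were higher in 4 of 9 (172 to 350 against 216 to 609 CPM), T and NK cell markers in 8 of 9 (10.8 to 48.4 against 84.8 to 115 CPM, with Trac and Klrb1c at 0 in wild-type libraries), B cell markers in 6 of 8 (7.81 to 140 against 392 to 955 CPM, with Ms4a1 at 0 in wild-type libraries) and stroma and endothelium markers in 5 of 8 tested (6.76 to 11.9 against 319 to 329 CPM). Some of these sums came largely from few genes. In knockout libraries Itga2b averaged 2021 CPM of the megakaryocyte and platelet sum. Pdgfrb averaged 154 and Pecam1 137 CPM of the stroma and endothelium sum. Mitochondrially encoded genes took 5.03% to 7.90% of the wild-type and 11.3% to 16.4% of the knockout counts. These values moved with every difference between the genotypes given below, and their part in it was not tested. In libraries from mixed cells, fewer cells of a type and less RNA per cell cannot be told apart.

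Of the 40 autophagy genes, 8 had an adjusted p below 0.05 (the threshold throughout) when edgeR's quasi-likelihood test was run over all genes, which is 20.0%, against 30.1% of all 18375 genes tested. Ulk1, Rb1cc1, Atg101, Atg16l2 and Calcoco1 were higher in knockout cells (12.5% of the members, against 19.4% of all genes), and Becn1, Atg14 and Optn were lower (7.5%, against 10.7%). At an unadjusted p below 0.05 there were 10 members, the other two being Atg5 and Gabarapl1. Among the 8218 genes with an average log2 CPM above 4, as 36 of the members had, 32.2% passed. Of these genes, 15.1% were higher and 17.0% lower, against 11.1% and 8.33% of the 36 members. The shares of members called were thus the smaller ones, but they rest on 8 genes and the difference was not tested.

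The median log2 fold change of the members, knockout over wild type, was 0.05, with quartiles of -0.34 and 0.37. It was 0.04 over all genes tested and -0.17 over those above the expression limit. The members ranged from -1.86 (Optn) to 1.56 (Atg16l2), with 22 above and 18 below 0. The median of the absolute log2 fold change was 0.353 in the members, against 0.746 over all genes and 0.539 over the genes above the limit. The change was smaller than 1 on the log2 scale, less than a doubling, in 34 of 40 members (85.0%), against 60.5% of all genes and 75.1% of the genes above the limit. In 23 members (57.5%) the whole 95% interval lay within that range, against 19.7% and 39.8%. Higher expression gives a smaller error, and the median SE was 0.234 for the members and 0.424 over all genes, so that the 39.8% of genes above the limit, with a median SE of 0.251, are the closer background. The knockout libraries all lay above the wild-type libraries in 8 members and all below in 10, and the groups overlapped in 22. That leaves 45.0% without overlap, against 50.1% of all genes.

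**Figure D1:**
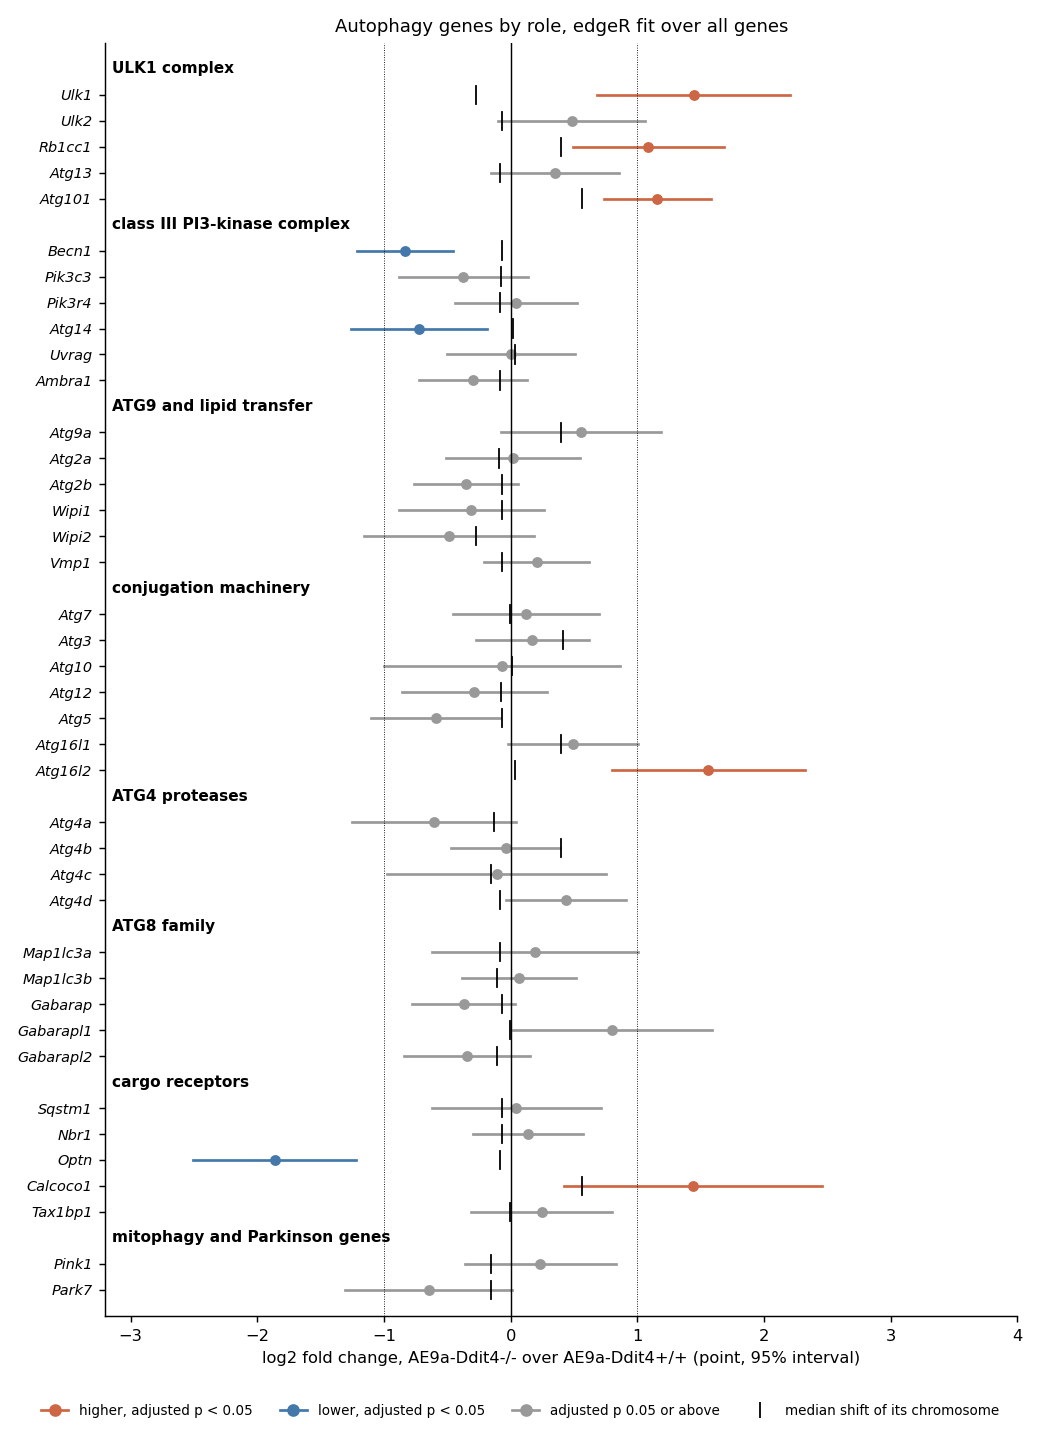
Log2 fold change of each of the 40 autophagy genes, AE9a-Ddit4-/- over AE9a-Ddit4+/+ (x axis), with the genes grouped by role (y axis), the 95% interval as a line and the median shift of the gene's chromosome as a tick. The ULK1 complex genes all lie to the right of 0, Optn lies farthest to the left at -1.86, and most other genes lie between the dotted lines at -1 and 1.

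The ULK1 complex, which starts autophagosome formation, was higher in knockout cells in 3 of its 5 genes, and the median log2 fold change of the 5 was 1.09. That is 60.0% past the threshold, against 30.1% of all genes in either direction (19.4% higher), in a group of only 5 genes. Ulk1, the gene of the initiating kinase (ENSMUSG00000029512, chr5:110784488-110810097, minus strand), was read at 98.4, 102 and 59.0 CPM in the wild-type and at 320, 232 and 155 CPM in the knockout libraries. All knockout libraries lay above all wild-type libraries, although both groups spread widely, with library 3 the lowest of each. The ratio of the means was 2.73, and the log2 fold change was 1.45 (SE 0.33, 95% interval 0.68 to 2.21, edgeR adjusted p 0.0146). Atg101 (ENSMUSG00000037204, chr15:101284272-101290945, plus strand) encodes a partner that stabilizes ATG13. It had 25.7, 23.5 and 26.3 CPM in the wild-type and 53.0, 57.9 and 57.7 CPM in the knockout libraries, with the narrowest spread of the complex in both groups. Its log2 fold change was 1.16 (SE 0.18, 95% interval 0.74 to 1.58, edgeR adjusted p 0.00346). Rb1cc1 (ENSMUSG00000025907, chr1:6206197-6276648, plus strand) encodes FIP200, the scaffold of the complex. It had 45.4, 60.3 and 37.9 CPM against 127, 97.0 and 81.0 CPM, again without overlap, with a log2 fold change of 1.09 (SE 0.26, 95% interval 0.49 to 1.68, edgeR adjusted p 0.0171). The Rb1cc1 call was lost without wild-type library 1 (1.05, adjusted p 0.0584) or 3 (0.94, 0.0627) and without knockout library 1 (0.90, 0.0533). Without each of these same libraries, 5 of the 40 members were called in place of 8.

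The other genes of the complex did not pass. Ulk2, the paralog of Ulk1, went from 35.7 ± 10.03 to 49.8 ± 6.07 CPM with overlapping groups (log2 fold change 0.48, edgeR adjusted p 0.185). Atg13, the gene of a further subunit of the complex, went from 54.0 ± 11.7 to 68.9 ± 6.18 CPM (0.35, adjusted p 0.262). The summed level of Ulk1 and Ulk2 was 122 ± 28.3 CPM in the wild-type and 285 ± 86.5 CPM in the knockout libraries (SD, n = 3 each). Per kilobase of exon, Ulk1 made up 68.6% ± 7.60 of the pair in wild-type and 80.4% ± 5.32 in knockout libraries.

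The start regions of the members were read as well. The RefSeq table (GRCm38.p6) held 34 of the 40 genes, without Rb1cc1, Becn1, Pik3c3, Atg12, Atg16l1 and Map1lc3a. Windows of 250 bases before to 50 after the start were searched on both strands for 6 short motifs. The GC box GGGCGG, a letter run bound by Sp1-type factors, was present in 24 of 34 members (70.6%) and in 38.2% of the 27025 genes of the table. The genes of the table were not limited to those tested here. In the 250 bases before the start, the median GC content was 59.0% over the members' 40 start regions and 52.4% over all 32851. The E-box CACGTG was present in 4 (Atg14, Atg7, Atg3 and Atg5; 11.8% against 8.09%). Its longer form TCACGTGA, the core of the element bound by the lysosomal regulator TFEB, overlaps it and was present in 1 (Atg3; 2.94% against 1.13%). The cAMP response element TGACGTCA was present in 2 (Atg5 and Atg16l2; 5.88% against 2.03%). The FoxO-type letters GTAAACA (4.05% of all genes) and the CEBP-ATF letters TTGCATCA (1.03%) were present in 0 of 34. The 250 bases before the start are shown for 3 genes that were higher and for Optn, the gene with the largest decrease, to let them be compared. They are Ulk1 (chr5:110810082-110810331, minus strand), Atg101 (chr15:101284051-101284300, plus), Atg16l2 (chr7:101302089-101302338, minus) and Optn (chr2:5064118-5064367, minus). Capitals mark GC boxes, in either orientation, and in Atg16l2 also the cAMP response element that directly follows the second of them.
Ulk1: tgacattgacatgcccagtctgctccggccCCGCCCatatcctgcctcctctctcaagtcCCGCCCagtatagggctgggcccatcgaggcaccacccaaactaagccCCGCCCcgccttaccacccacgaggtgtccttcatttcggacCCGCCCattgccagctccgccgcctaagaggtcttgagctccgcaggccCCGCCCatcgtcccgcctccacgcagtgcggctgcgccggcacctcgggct
Atg101: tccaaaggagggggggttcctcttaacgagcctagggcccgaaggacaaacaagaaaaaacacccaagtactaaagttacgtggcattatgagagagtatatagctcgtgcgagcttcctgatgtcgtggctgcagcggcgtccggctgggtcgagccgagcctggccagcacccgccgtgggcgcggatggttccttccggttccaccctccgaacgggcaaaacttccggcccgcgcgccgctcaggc
Atg16l2: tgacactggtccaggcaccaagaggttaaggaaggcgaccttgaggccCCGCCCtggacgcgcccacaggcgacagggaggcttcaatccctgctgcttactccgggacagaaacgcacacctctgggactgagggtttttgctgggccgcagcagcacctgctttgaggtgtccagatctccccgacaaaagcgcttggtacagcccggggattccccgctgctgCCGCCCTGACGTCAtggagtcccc
Optn: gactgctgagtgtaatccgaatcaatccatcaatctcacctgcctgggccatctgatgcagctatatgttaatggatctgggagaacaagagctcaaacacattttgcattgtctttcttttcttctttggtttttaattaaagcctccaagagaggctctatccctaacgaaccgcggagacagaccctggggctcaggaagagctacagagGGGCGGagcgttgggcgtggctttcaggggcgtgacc
GC boxes were found in genes of both directions. Of the 4 higher genes in the RefSeq table, Ulk1 had 5 GC boxes in these 250 bases, Calcoco1 had 3, Atg16l2 had 2 and Atg101 had none of the 6 motifs. Of the lower genes, Atg14 had 2 GC boxes and Optn had 1.

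The class III PI3-kinase complex makes the lipid signal on the growing membrane. Of its 6 genes, 2 were lower and 0 higher in knockout cells, and the median log2 fold change was -0.34. That is 33.3% past the threshold, all of it lower, against 10.7% of all genes lower and 30.1% in either direction. The group holds only 6 genes. Becn1 (ENSMUSG00000035086, chr11:101285952-101302286, minus strand) encodes Beclin 1, the regulatory subunit on which the complex is built. It was read at 230, 204 and 245 CPM in the wild-type and at 133, 123 and 126 CPM in the knockout libraries. The groups were narrow and far apart, and the level was 1.78-fold lower (log2 fold change -0.83, SE 0.16, 95% interval -1.21 to -0.45, edgeR adjusted p 0.00836). Its exons share 43.9% of their bases with Cntd1 on the other strand, and whether the counting used strand is not stated. Cntd1 had 958 counts over the 6 libraries, against 69238 for Becn1. Atg14 (ENSMUSG00000037526, chr14:47540893-47570649, minus strand) encodes the subunit that directs the complex to autophagosome formation. It had 32.2, 28.5 and 26.1 CPM against 20.5, 14.8 and 17.3 CPM, with no overlap and a log2 fold change of -0.72 (SE 0.23, 95% interval -1.26 to -0.19, edgeR adjusted p 0.0485). This call was close to the threshold, and it was lost without any single library, at adjusted p values of 0.0567 (without knockout library 1) to 0.138 (without wild-type library 1), while the value stayed between -0.85 and -0.64.

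The catalytic subunit gene Pik3c3 went from 54.5 ± 13.0 to 42.0 ± 1.88 CPM (log2 fold change -0.37, edgeR adjusted p 0.235) and Ambra1, an activator of the complex, from 64.1 ± 7.60 to 52.1 ± 3.48 CPM (-0.30, 0.256). Neither passed. In both genes every knockout library lay below every wild-type library. Groups without overlap, also where given for single genes below, were found in 50.1% of all genes tested, in either direction. The regulatory subunit gene Pik3r4 (0.05, 95% interval -0.44 to 0.53) and Uvrag, which replaces ATG14 in a complex of the endosomal route (-0.00, -0.50 to 0.50), had intervals around 0 that leave room for changes of up to 0.53 on the log2 scale.

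**Figure D2:**
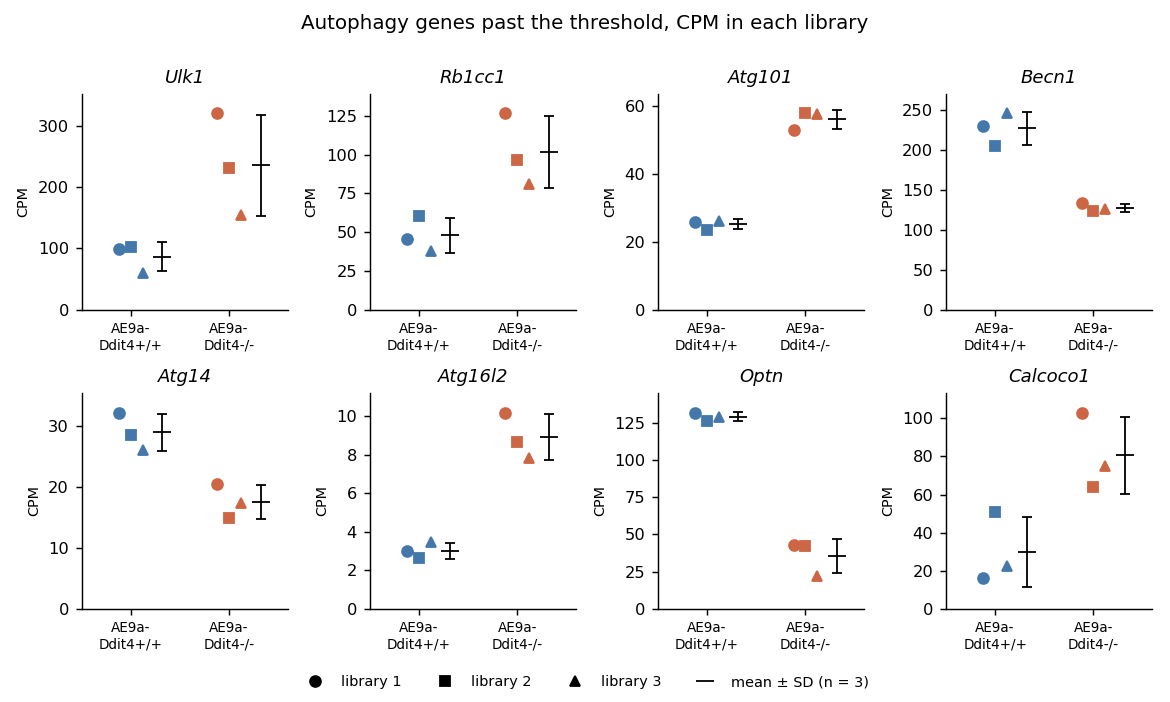
CPM (y axis, from 0) in each library of AE9a-Ddit4+/+ (blue) and AE9a-Ddit4-/- (orange) for the 8 autophagy genes past the threshold, with the mean and SD of the 3 libraries beside the points. The groups do not overlap in any of the 8 genes, and in Calcoco1 the nearest libraries of the groups lie at 50.7 and 63.9 CPM.

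The genes that bring membrane and lipids gave 0 of 6 past the threshold (0 at an unadjusted p below 0.05). The share over all genes was 30.1%, and the group holds only 6 genes. Atg9a, which encodes a transmembrane protein of the vesicles that seed the membrane, went from 87.1 ± 28.1 to 128 ± 25.3 CPM (log2 fold change 0.55, SE 0.27, edgeR adjusted p 0.161). The groups overlapped through wild-type library 2 at 119 CPM. Without that library the change was 0.85 and passed (edgeR adjusted p 0.0340), the only 1 of 16 alternatives in which Atg9a did. Atg9a lies on chromosome 1, whose expressed genes were higher as a whole by 0.40, and less that shift its change was 0.15. Atg9a shares 31.8% of its exon bases with Gm29253 on the same strand, which had 1123 counts against 42230. The lipid transfer genes Atg2a and Atg2b had log2 fold changes of 0.02 and -0.35, the lipid-binding effectors Wipi1 and Wipi2 of -0.31 and -0.49, and the endoplasmic reticulum scramblase gene Vmp1 of 0.21, with edgeR adjusted p values from 0.167 (Atg2b) to 0.965 (Atg2a).

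The conjugation genes encode the enzymes that couple ATG12 to ATG5 and ATG8 proteins to lipid. Of 7 genes, 1 passed (14.3%, against 30.1% of all genes). Atg16l2 (ENSMUSG00000047767, chr7:101263034-101302251, minus strand) is the less studied paralog of Atg16l1, which brings the conjugate to the membrane. It had 2.98, 2.62 and 3.45 CPM in the wild-type and 10.2, 8.69 and 7.83 CPM in the knockout libraries. The ratio of the means was 2.95, the highest among the 40 genes, with a log2 fold change of 1.56 (SE 0.33, 95% interval 0.80 to 2.33, edgeR adjusted p 0.0107). It was also the gene with the lowest level per kilobase of exon in both groups, so that in the pair Atg16l1 still made up 96.1% ± 1.17 of the level per kilobase in wild-type and 92.5% ± 0.483 in knockout libraries. Atg16l1 itself went from 88.8 ± 18.3 to 125 ± 20.9 CPM (log2 fold change 0.49, adjusted p 0.133).

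Atg5, the target of ATG12, had 39.4, 37.1 and 32.2 CPM in the wild-type and 19.5, 25.9 and 26.7 CPM in the knockout libraries. The groups did not overlap, but the log2 fold change of -0.59 (SE 0.22, 95% interval -1.10 to -0.08) passed at an unadjusted p (0.0283) and not after adjustment over all genes (edgeR adjusted p 0.0786). Atg7, the activating enzyme of both conjugation systems, had 26.5, 32.2 and 26.4 CPM against 36.9, 22.5 and 33.1 CPM, with overlapping groups (0.12, 95% interval -0.46 to 0.70, adjusted p 0.743). Atg3, the enzyme that transfers ATG8 proteins, had a log2 fold change of 0.17, and Atg10, the transfer enzyme for ATG12, one of -0.07. Atg12 had -0.29 (adjusted p 0.415). The interval of Atg10, with 124 counts in the library where it was lowest, was wide, from -0.999 to 0.866.

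The ATG4 proteases trim ATG8 proteins before they are attached and release them later. Of the 4 genes, 0 passed (0 at an unadjusted p below 0.05), against 30.1% of all genes, in a group of only 4. Their summed level was nearly the same in both groups, at 176 ± 10.8 CPM in the wild-type and 178 ± 3.24 CPM in the knockout libraries (SD, n = 3 each), while the genes went different ways. Atg4a lay below its wild-type range in all knockout libraries (41.7 ± 9.18 and 27.4 ± 6.95 CPM, log2 fold change -0.60, edgeR adjusted p 0.140) and Atg4d lay above it (52.4 ± 9.97 and 70.8 ± 6.21 CPM, 0.44, adjusted p 0.146). Atg4b and Atg4c had log2 fold changes of -0.04 and -0.11. Atg4a is X-linked, and the groups differed in the sex of the cells. The median log2 fold change of expressed X-linked genes was -0.13 relative to all expressed genes. The part of sex in the Atg4a difference was not tested. The exons of Atg4d share 19.3% of their bases with Kri1 on the other strand, which had more counts (38995 against 24273), so that reads of the pair may not be separable.

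The ATG8 family gives the proteins that coat the autophagosome and serve as its usual markers. Of the 5 genes, 0 passed after adjustment and 1 at an unadjusted p below 0.05. After adjustment 30.1% of all genes passed, and the family holds only 5 genes. Map1lc3b, the gene of LC3B, had 117, 141 and 156 CPM in the wild-type and 168, 136 and 131 CPM in the knockout libraries. The groups overlapped, and the interval of the log2 fold change (0.07, -0.38 to 0.52) leaves room for a change of up to 0.52. Map1lc3a had 10.3, 5.72 and 11.6 CPM against 12.01, 10.5 and 9.12 CPM (0.19, -0.62 to 1.01).

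Among the GABARAP genes, Gabarapl1 had 94.3, 36.5 and 69.3 CPM in the wild-type and 111, 136 and 102 CPM in the knockout libraries. All knockout libraries lay above, and the log2 fold change was 0.80 (SE 0.34, unadjusted p 0.0466, edgeR adjusted p 0.112). Its exons share 28.3% of their bases with 1700101I11Rik on the other strand, which had 513 counts against 35611. Gabarap had 187, 170 and 170 CPM against 152, 116 and 140 CPM, with all knockout libraries below (-0.37, edgeR adjusted p 0.150). Gabarapl2 had 55.2, 40.3 and 50.4 CPM against 38.0, 44.1 and 33.1 CPM, with overlap (-0.34, adjusted p 0.266).

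The summed level of the family was 439 ± 38.7 CPM in the wild-type and 446 ± 32.6 CPM in the knockout libraries, a difference smaller than the spread within either group. Its makeup per kilobase of exon was less alike. Gabarap took 54.7% ± 5.40 of the family in wild-type and 41.8% ± 5.52 in knockout libraries, and Gabarapl1 took 18.4% ± 6.00 and 32.8% ± 4.86, without overlap of the groups in either gene. The share of Map1lc3b was 10.7% ± 2.38 and 10.9% ± 0.961. Gabarapl2 took 11.9% ± 0.374 and 9.37% ± 1.21, again without overlap, and Map1lc3a 4.38% ± 1.15 and 5.04% ± 0.411 (SD, n = 3 each). These shares are a description of the libraries and were not tested.

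**Figure D3:**
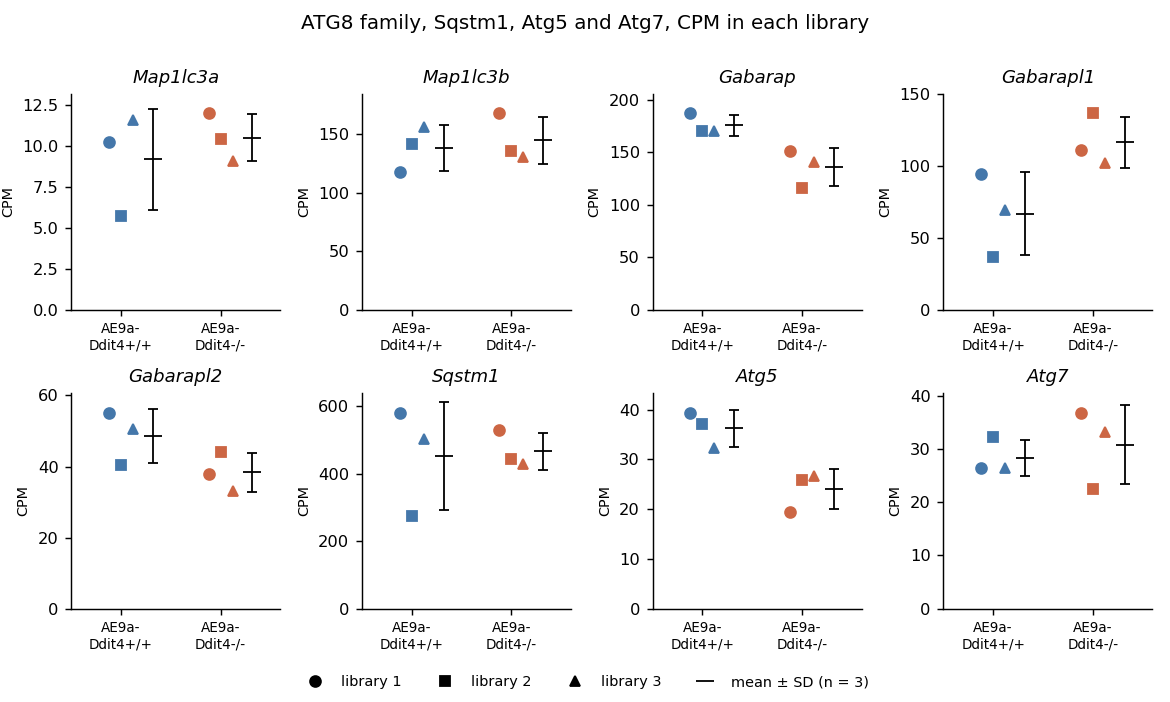
CPM (y axis, from 0) in each library of AE9a-Ddit4+/+ (blue) and AE9a-Ddit4-/- (orange) for the 5 ATG8 genes, Sqstm1, Atg5 and Atg7, with the mean and SD of the 3 libraries beside the points. Gabarapl1 lies higher and Gabarap and Atg5 lower in every AE9a-Ddit4-/- library, and none of the 8 genes passed the threshold.

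The cargo receptors showed the largest decrease and 1 increase among 5 genes. That is 20.0% higher and 20.0% lower, against 19.4% and 10.7% of all genes, in a group of only 5 genes. Optn (ENSMUSG00000026672, chr2:5020642-5064051, minus strand) encodes optineurin, a receptor for damaged mitochondria and bacteria. It had 132, 126 and 129 CPM in the wild-type and 42.7, 41.8 and 22.1 CPM in the knockout libraries. The wild-type libraries were nearly equal and every knockout library was far below them. The level was 3.64-fold lower (log2 fold change -1.86, SE 0.28, 95% interval -2.51 to -1.22, edgeR adjusted p 0.00304), and Optn passed in all 16 alternatives, at -2.05 to -1.66. Calcoco1 (ENSMUSG00000023055, chr15:102706777-102722178, minus strand) encodes a receptor for the endoplasmic reticulum and Golgi. It had 16.1, 50.7 and 22.3 CPM against 103, 63.9 and 74.8 CPM, without overlap but with a wide spread in both groups. The log2 fold change was 1.44 (SE 0.44, 95% interval 0.42 to 2.46, edgeR adjusted p 0.0423). The Calcoco1 call was lost without wild-type library 1 (1.14, adjusted p 0.0987) or 3 (1.27, 0.132) and without knockout library 1 (1.23, 0.129), 2 (1.54, 0.0645) or 3 (1.44, 0.0858).

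Sqstm1, the gene of p62, had the highest level per kilobase of the 40 genes in both groups. It had 581, 274 and 502 CPM in the wild-type and 529, 442 and 427 CPM in the knockout libraries, with wild-type library 2 far below the others. The groups overlapped, and the log2 fold change was 0.04 with a 95% interval of -0.62 to 0.71 (edgeR adjusted p 0.922). Its exons share 17.3% of their bases with Mrnip on the other strand, which had 2595 counts against 178979. Nbr1, a receptor related to p62, and Tax1bp1 had log2 fold changes of 0.14 and 0.24 (adjusted p 0.614 and 0.476). Of the 2 genes tied to Parkinson disease, Pink1, the kinase that marks damaged mitochondria, had 0.24 (adjusted p 0.521). Park7, whose product DJ-1 guards against oxidation, went from 123 ± 24.7 to 78.8 ± 24.1 CPM with all knockout libraries below (-0.65, edgeR adjusted p 0.123).

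Ranked by level per kilobase of exon (CPM per kb, mean ± SD, n = 3 each), Sqstm1 led in wild-type libraries with 135 ± 47.5, followed by Gabarap (95.3 ± 5.31), Park7 (49.8 ± 9.96), Tax1bp1 (38.4 ± 6.71), Optn (34.5 ± 0.745) and Gabarapl1 (33.1 ± 14.4). The means from Tax1bp1 to Gabarapl1 lay within the spread of their neighbours. In knockout libraries the order was Sqstm1 (139 ± 16.4), Gabarap (73.7 ± 9.98), Gabarapl1 (57.8 ± 8.87), Tax1bp1 (45.5 ± 11.5), Pink1 (38.3 ± 8.80) and Ulk1 (36.3 ± 12.8), and the last 3 were within the spread of their neighbours too. Optn moved from rank 5 to 24, Ulk1 from 20 to 6 and Atg101 from 13 to 7. Lowest in both groups were Atg10 (1.45 ± 0.375 and 1.38 ± 0.211) and Atg16l2 (0.356 ± 0.0490 and 1.05 ± 0.142). The members varied less among the replicates than genes at large, with a median coefficient of variation of 18.3% in wild-type and 15.3% in knockout libraries, against 29.3% and 26.6% over all genes. Genes above the expression limit had 19.6% and 18.6%. Knockout library 1 was the highest of its group in 24 of the 40 members, Ulk1, Rb1cc1, Atg16l2 and Calcoco1 among them.

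Genes on some chromosomes lay higher or lower as a whole in knockout cells, and several members sit on those chromosomes. The median log2 fold change of expressed genes, relative to all such genes, was 0.40 on chromosome 1, 0.56 on chromosome 15, 0.42 on chromosome 16 and -0.27 on chromosome 5. Of the 7 members on chromosomes 1, 15 or 16, 3 were among the 5 that were higher (Rb1cc1, Atg101 and Calcoco1) and 4 did not pass, while 0 of the 3 that were lower lie there. The shares of all genes on these chromosomes that were higher or lower were not counted. These member counts therefore describe position only and are no result about the members. With the chromosome's median entered as an offset, a setting chosen after the data had been seen, 6 members passed, 3 higher and 3 lower. Rb1cc1 then had 0.69 (edgeR adjusted p 0.0812) and Calcoco1 0.88 (0.167), so that both lost the call. Atg101 stayed past the threshold at 0.60 (adjusted p 0.0408), against 1.16 without the offset, and Ulk1, on chromosome 5, reached 1.72 (adjusted p 0.00814).

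Genes of the pathway beyond the 40 were read from the same fit. Of 48 further genes, 44 had enough counts to be tested. Of these 44, 10 passed (22.7%, against 30.1% of all genes), 3 higher and 7 lower, with a median log2 fold change of -0.09. Bnip3, a receptor for mitochondria that hypoxia induces, had 3.81, 7.44 and 5.20 CPM in the wild-type and 45.5, 25.4 and 41.9 CPM in the knockout libraries. It was the most changed gene of either list that passed, at a log2 fold change of 2.78 (edgeR adjusted p 0.00191, SE 0.36), and the groups lay far apart. Its close relative Bnip3l (NIX), which removes mitochondria from maturing red cells, went the other way, from 336 ± 16.01 to 199 ± 21.8 CPM (-0.75, SE 0.17, adjusted p 0.0132). The erythroid markers were lower in the same libraries by the values given above, and their part in the Bnip3l difference was not tested.

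Among the other receptors, Tollip (log2 fold change -0.81, SE 0.17, edgeR adjusted p 0.0109) and Wdfy3, whose product ALFY serves the removal of protein aggregates (-1.11, SE 0.26, adjusted p 0.0175), were lower. Of 14 genes of autophagosome to lysosome fusion, 1 was higher and 2 lower (21.4% past the threshold, against 30.1% of all genes). Tecpr1, which encodes a tether between the membranes, had 12.3, 27.7 and 20.6 CPM in the wild-type and 189, 60.8 and 58.3 CPM in the knockout libraries, with library 1 far above the rest (2.35, SE 0.54, adjusted p 0.0156). It lost the call without wild-type library 1 (2.08, adjusted p 0.0525) or 3 (2.36, 0.0540). Vps33a (-1.14, SE 0.20, adjusted p 0.00554) and Vps41 (-0.67, SE 0.19, adjusted p 0.0352), subunits of the HOPS tethering complex, were lower, and Vps41 lost the call without any single library except wild-type library 2, at adjusted p values of 0.0513 to 0.117. Vps33a, Wdfy3 and Tecpr1 lie on chromosome 5, whose expressed genes were lower as a whole (-0.27). Less that shift, their changes were -0.86, -0.83 and 2.62. Wdr45b, a relative of the WIPI genes, was lower as well (-0.70, SE 0.17, adjusted p 0.0188) and lost the call without wild-type library 3 (-0.69, 0.0622) or knockout library 3 (-0.66, 0.0585).

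Of the subunits of AMPK, the energy-sensing kinase that activates ULK1, the catalytic gene Prkaa1 was lower, with 71.0, 72.1 and 65.4 CPM in the wild-type and 22.6, 16.9 and 42.4 CPM in the knockout libraries, at a log2 fold change of -1.35 (edgeR adjusted p 0.0226, SE 0.34). Prkaa1 lies on chromosome 15, whose genes were higher as a whole. Its call was lost without wild-type library 1 (-1.33, adjusted p 0.0596) or 3 (-1.39, 0.0543) and without knockout library 1 (-1.22, 0.0804) or 2 (-1.13, 0.0512). The regulatory gene Prkab2 was higher, with 7.33, 4.98 and 3.13 against 22.6, 15.5 and 20.7 CPM (1.93, SE 0.38, adjusted p 0.00864). The groups did not overlap in either gene. Tfeb and Tfe3, the transcription factors of lysosomal and autophagy genes that mTORC1 keeps out of the nucleus, had log2 fold changes of -0.10 (95% interval -0.64 to 0.45, adjusted p 0.789) and -0.30 (-0.82 to 0.23, adjusted p 0.356), with overlapping groups.

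**Figure D4:**
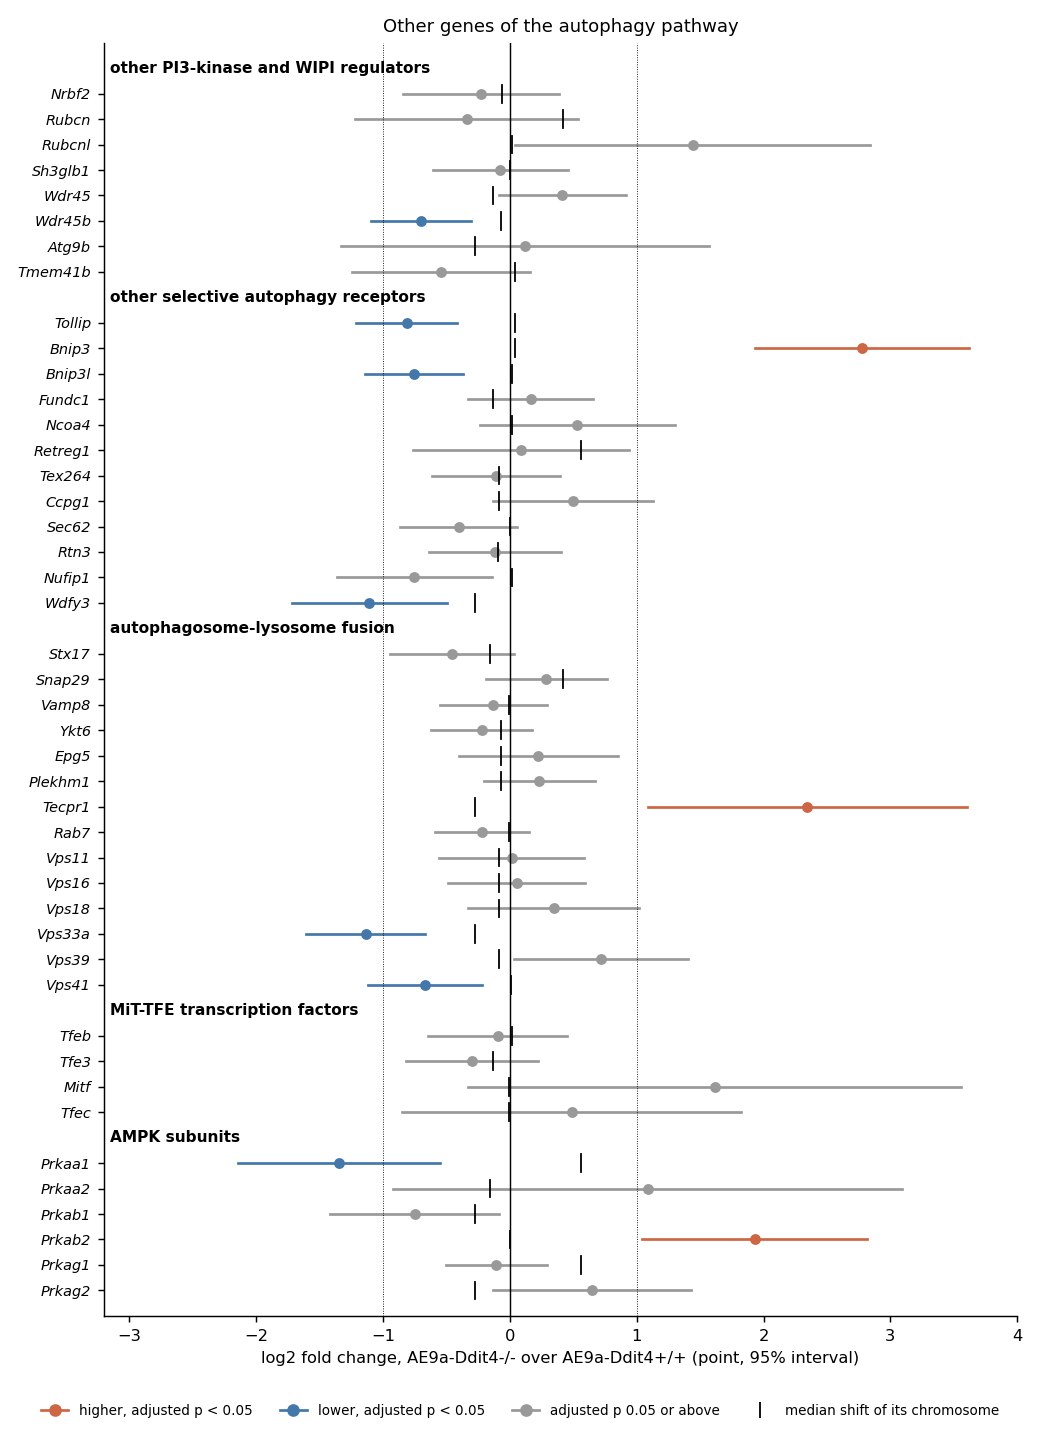
Log2 fold change, AE9a-Ddit4-/- over AE9a-Ddit4+/+ (x axis), with 95% intervals for the 44 tested genes of the pathway beyond the 40, grouped by role (y axis), with the median shift of the gene's chromosome as a tick. Bnip3 (2.78), Tecpr1 (2.35) and Prkab2 (1.93) lie to the right, and 7 genes that were lower lie between -1.35 (Prkaa1) and -0.67 (Vps41).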

How the data were processed

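The authors deposited 1 table of gene counts with a column per library, from bone marrow leukemia cells of AE9a-Ddit4+/+ (n = 3) and AE9a-Ddit4-/- (n = 3) mice. The build in the submitters' processing notes is GRCm38 (mm10), while the aligner, the counting tool, its annotation and its use of strand are not given in the sources used here. The labels name an mRNA kit, the methods a directional kit for rRNA-depleted RNA sequenced on an Illumina NovaSeq. The values are whole numbers of 62141558 to 72717681 counts per library, with no scaling. Their low values pile up at multiples of 4, so that counting error may be understated and an alternative with counts divided by 4 was run. Groups and replicate numbers came from the titles.

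In R 4.3.3, genes were filtered with filterByExpr, scaled by TMM (factors 0.921 to 1.05) and tested in edgeR 4.0.16 (robust quasi-likelihood F-test), with genotype as the only term and Benjamini-Hochberg adjustment over all 18375 genes tested (threshold 0.05). The script was tested on simulated counts. SE is the absolute log2 fold change over the square root of F, and 95% intervals follow from it. CPM are counts per 1000000 of the TMM-scaled totals, given as mean ± SD. Positions and exon lengths came from GENCODE M21 and start regions from RefSeq. The chromosome shift is the median log2 fold change of a chromosome's genes above an average log2 CPM of 4, relative to all such genes. Alternatives were other scalings, other low-count filters, DESeq2 1.42.0, an adjusted p below 0.01, a replicate block, a chromosome offset and leaving out each library.

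Every member was to be named by role. Values in every library were given for members at an unadjusted p below 0.05 and for Ulk1, Becn1, Atg5, Atg7, Sqstm1 and the ATG8 genes, and further genes of the pathway were named when past the threshold, as were Tfeb and Tfe3. The members and lists were chosen with earlier results of these data known. They are described by counts and medians, without a test of a list.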

Additional observations from a re-analysis of the deposited data

How the results depend on the processing

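Optn and Atg101 passed the threshold in all 16 alternatives, Ulk1 in 15, Becn1 in 15, Atg16l2 in 14, Rb1cc1 in 11, Calcoco1 in 7 and Atg14 in 5. No called gene changed direction. Of the 640 values of the members under the alternatives, 610 kept their side of the threshold, 29 lost it and 1 gained it (Atg9a). Between 0 and 5 members that did not pass changed sign per alternative, the largest with a log2 fold change of 0.24 as reported. At an adjusted p below 0.01, 3 members were called in place of 8 (1 higher), 3 further genes of the pathway in place of 10 (1 lower), and 2676 of all genes in place of 5535 (1964 higher, 712 lower). The ULK1 complex and the class III PI3-kinase complex then had 1 call each, the receptors 1 and the conjugation genes 0. With DESeq2 size factors, with no low-count filter or with a minimum of 10 counts per library, the class III complex had 1 call. The last of these left 2341 of all genes higher in place of 3560, with fewer genes tested. With library totals alone the receptors had 1 call. DESeq2's Wald test called 8 members. It was run without the low-count filter, and the median over its genes was 0.15, against 0.04 over the filtered genes. The edgeR fit with no low-count filter had a median of 0.11. With the chromosome offset 3 members were higher and the receptors had 1 call.

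The replicate numbers did not pair the libraries, since deviations of same-numbered libraries had correlations of -0.17, -0.19 and -0.05. With the number as a replicate block, 4 members were called (3 higher, 1 lower), with 0 in the class III complex, 0 among the conjugation genes and 1 among the receptors, 3 further genes (1 lower) and 2964 of all genes (2177 higher, 787 lower). Becn1 then missed the threshold at an adjusted p of 0.0505 and Atg16l2 at 0.0606.

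Leaving out 1 library at a time gave 5 to 8 members called, 3 to 6 higher and 2 lower, with medians of -0.03 to 0.08. All genes called ranged from 3840 to 6021, higher from 2683 to 3943 and lower from 1089 to 2078, the last without AE9a-Ddit4+/+ library 3 at the low end. The median of all genes was -0.01 to 0.13. Further genes of the pathway called ranged from 6 to 12, higher from 2 to 4 and lower from 4 to 8. By role, the ULK1 complex had 2 to 3 calls, the class III complex and the conjugation genes 1 each, the ATG9 group 0 to 1 and the receptors 1 to 2. Ddit4 ranged from -1.78 to -1.24. The lowest count of a member in a library was 124, in Atg10, the gene with the wide interval given above (SE 0.40).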
